A study of Mus musculus with 8 samples.

Results

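The proteasome is the large protease that breaks down proteins tagged with ubiquitin, and its genes were followed here in mouse liver 48 hours after partial hepatectomy. Members were taken by symbol: the name had to begin with Psma to Psmg and a digit, hold no pseudogene mark, and reach a value of at least 10 normalized reads in at least 3 libraries. The rule gave 48 genes of the 19055 in the deposited table, from 51 matching symbols. The remaining 3 symbols, Psma5-ps, Psmb6-ps and Psmb6-ps2, are pseudogenes and were dropped. Psmb6-ps2 reached 10 reads in 2 libraries, with values of 5.91 to 10.3 normalized reads, while the faintest member, Psma8, had values of 6.92 to 18.6. Reads of Psmb6 and Psma5 that also match these copies could have been split between them, which leaves those levels uncertain.

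Livers of the mutant mice carry the label URI(+/D)Hep (n = 5), a loss-of-function model in which a creERT2 line under serum albumin control deletes URI in hepatocytes, with a notation that keeps a + allele. The livers they were set against carry the label URI(+/+)Hep (n = 3) and came from wild-type littermates. All mice had 1 week of tamoxifen and were between 8 and 9 weeks old. Whether littermates carried creERT2 was not given in the sources used here. URI is a prefoldin-like protein that works with the R2TP chaperone complex, and the comparison asks how its loss in hepatocytes bears on the regenerating liver. RNA was taken from frozen liver in bulk, although the labels give the cell type as epithelial. The labels name replicates without saying that each is a separate animal, so a p-value covers only the spread between these libraries.

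Each library read the 3′ ends of polyadenylated transcripts and held 3838674 to 4800694 reads, counted back from the deposited values. Uri1 had 328, 398, 437, 354 and 401 normalized reads in libraries labelled URI(+/D)Hep, against 468, 374 and 310.0 in those labelled URI(+/+)Hep (log2 fold change 0.011, SE 0.15, limma adjusted p = 0.975). Its level thus did not follow the labels, and a 3′ tag outside the deleted stretch need not do so, which is why libraries are called by their label. Values below are in the order of replicates 1 to 5 and 1 to 3. All 8 hepatocyte markers of the list were present, with summed reads of 47509 to 57551 in libraries labelled URI(+/D)Hep and 57538 to 69115 in those labelled URI(+/+)Hep. The largest part of these sums was Trf alone. It had 18712 to 27551 normalized reads in libraries labelled URI(+/D)Hep and 28811 to 37986 in those labelled URI(+/+)Hep. By gene, 5 of the 8 hepatocyte markers had negative log2 fold changes and 3 positive ones, so the sums do not stand for all of them. Of 13 leukocyte markers 11 were in the table, and their sums were 1570.4 to 1893 in libraries labelled URI(+/D)Hep and 1421 to 2249.9 in those labelled URI(+/+)Hep. Endothelial and stellate markers summed to 3271 to 3801 in libraries labelled URI(+/D)Hep and 2789.5 to 3297 in those labelled URI(+/+)Hep, and dividing cell markers to 379.8 to 3187 in libraries labelled URI(+/D)Hep and 248 to 3288 in those labelled URI(+/+)Hep. Dividing cell markers were lowest in URI(+/D)Hep 5 and URI(+/+)Hep 1. Transcripts of both sexes were unevenly spread: URI(+/D)Hep 1 had 3.54 normalized reads in 4 Y-linked genes, and URI(+/+)Hep 1 and 2 had 9.59 and 2.95 of Xist. The other 5 libraries, URI(+/D)Hep 2 to 5 and URI(+/+)Hep 3, held both kinds, and values are also given for those alone, where the 1 library labelled URI(+/+)Hep is assumed to vary like the others. The part of these differences in the proteasome values was not tested.

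The proteasome has a barrel-shaped core, the 20S particle, built of alpha rings that gate the entrance and beta rings that hold the cutting sites. The regulatory particle, 19S, caps the barrel, and its ring of ATPases unfolds substrates that its other subunits recognise and strip of ubiquitin. Under interferon, 3 beta subunits can be exchanged for inducible ones encoded by Psmb8, Psmb9 and Psmb10, which together with the activator genes Psme1 and Psme2 mark the immunoproteasome of antigen presentation. In mammals the transcription factor NFE2L1 raises proteasome genes when proteasome activity falls short. Hepatocytes rely on the proteasome for turnover of metabolic enzymes and of proteins that fail quality control.

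No proteasome gene passed the limma test, and the median log2 fold changes of the classes lay on different sides of zero. Of the 13704 genes tested with limma, 0 were called higher (0%) and 2 lower (0.0146%) at an adjusted p under 0.05, among them 0 of the 48 members. At an unadjusted p under 0.05, limma counted 13 members lower and 0 higher, where 9.33% and 8.35% of all genes tested were. The smallest limma adjusted p of a member was 0.115, for Psmd2. Negative log2 fold changes, that is URI(+/D)Hep minus URI(+/+)Hep on the log2(value + 1) scale, were found for 33 members and positive ones for 15. Their median was -0.17, beside -0.0019 over all genes tested.

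For the 20S core the median log2 fold change was -0.18, with 12 of 15 genes negative. For the 19S regulatory particle it was -0.11, with 13 of 17 negative. For the immunoproteasome genes it was 0.21, with 5 of 5 positive. Library URI(+/+)Hep 1 weighs on the first 2 of these values: without it the medians were -0.10 for the core, -0.054 for the regulatory particle and 0.18 for the immunoproteasome. In the 5 libraries holding Xist together with Y-linked reads they were -0.067, -0.15 and 0.049, with URI(+/+)Hep 3 as the single library of that label. As RNA came from bulk liver, fewer cells of a type and less RNA per cell cannot be told apart.

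Group ranges stood apart for 11 members that were lower in libraries labelled URI(+/D)Hep, or 22.9%, where the share over all genes tested was 7.3%. For 1 member they were higher without overlap, or 2.08%, against 6.13% over all genes. By class, the lower ones were 3 of 15 core genes, 5 of 17 regulatory particle genes, 1 of 3 of its assembly chaperones and 2 of 3 other regulators. None of the 5 immunoproteasome genes was among them in either direction. On reads counted back from the table, DESeq2 called 6 members lower and 0 higher of the 46 to which it gave an adjusted p, with 4.1% and 2.57% over all genes it adjusted. These were Psmd2, Psmb6, Psme3, Psmb1, Psma6 and Psmc3, with DESeq2 adjusted p-values of 0.00217 to 0.0491. Without the library URI(+/D)Hep 5, DESeq2 called 2 members lower, Psmd2 and Psmd8, and 0 higher, with 2.2% and 1.06% over all genes it adjusted in that fit. With edgeR 0 members were called, where it called 3 of all genes lower (0.0219%) and 0 higher (0%).

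**Figure D1:**
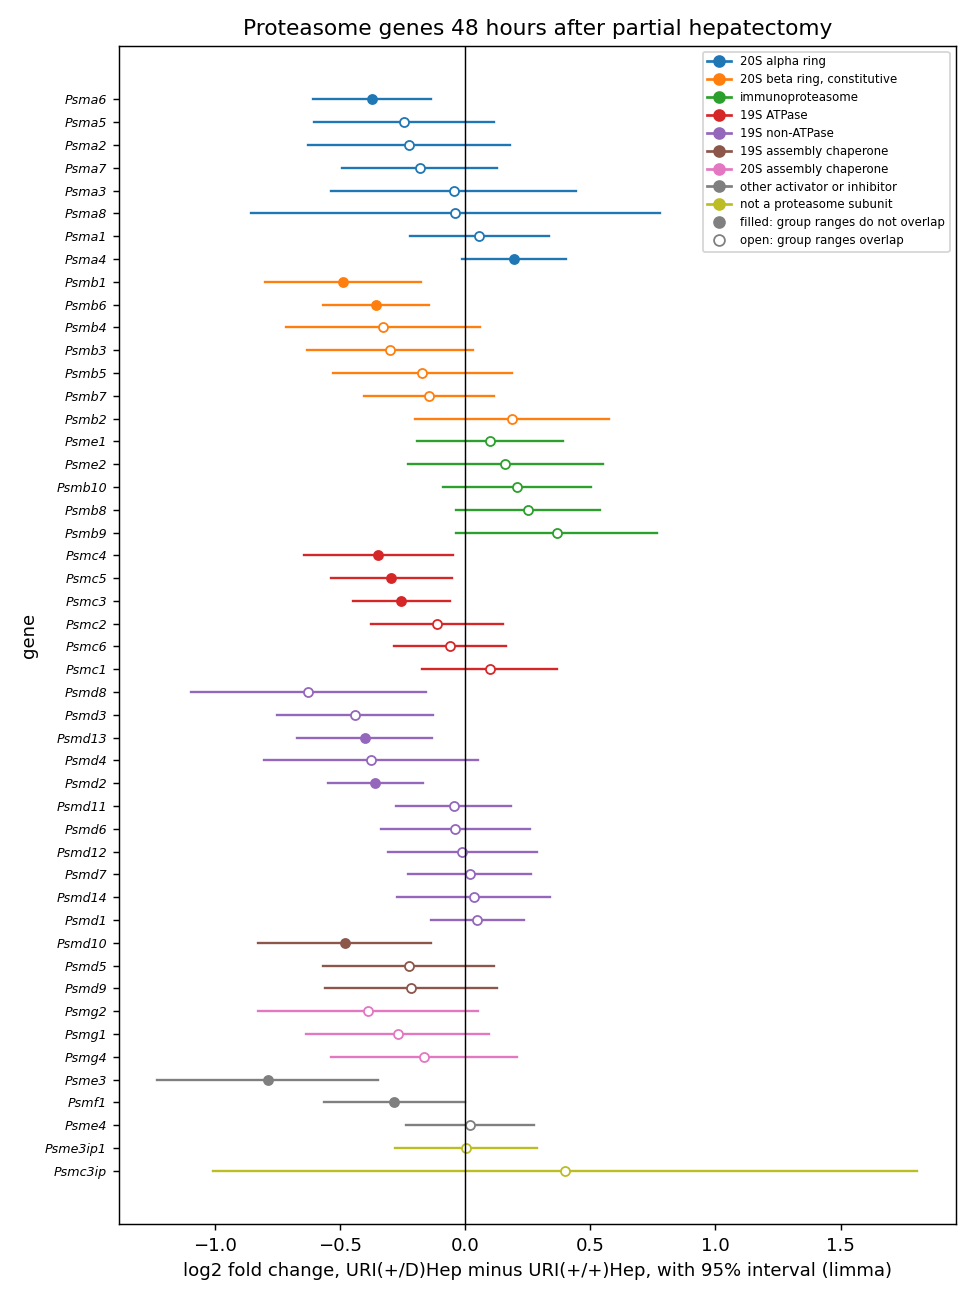
Log2 fold change of every member, URI(+/D)Hep minus URI(+/+)Hep, on the horizontal axis with the 95% interval from limma, genes down the vertical axis grouped and coloured by class. Filled points are genes whose group ranges do not overlap. The 5 immunoproteasome genes lie right of zero, while 12 of 15 core genes and 13 of 17 regulatory particle genes lie left of it.

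The alpha rings, which gate the core, held genes on both sides. Psma6 had 231, 258, 255, 266 and 239 normalized reads in libraries labelled URI(+/D)Hep, against 354, 293 and 325 in those labelled URI(+/+)Hep (log2 fold change -0.37, SE 0.10, limma adjusted p = 0.139). Every library labelled URI(+/D)Hep lay below every library labelled URI(+/+)Hep for this gene. Psma4 had 986, 1122, 1122, 1097 and 989 normalized reads in libraries labelled URI(+/D)Hep, against 975, 919 and 890.4 in those labelled URI(+/+)Hep (log2 fold change 0.19, SE 0.092, limma adjusted p = 0.308). It was the 1 member whose values were all higher in libraries labelled URI(+/D)Hep, by a narrow gap between 986 and 975. Psma5 had 209, 231, 259, 193 and 289 normalized reads in libraries labelled URI(+/D)Hep, against 329, 248 and 262 in those labelled URI(+/+)Hep (log2 fold change -0.25, SE 0.16, limma adjusted p = 0.451), so the groups overlapped, and its log2 fold change was -0.12 without URI(+/+)Hep 1. The other 5 alpha genes had log2 fold changes between -0.22 and 0.057, with a smallest limma adjusted p of 0.52. One of them is Psma8, the alpha subunit of the testis proteasome in mouse, whose reads here were close to the filter. In Psma2 a single library carried the difference: URI(+/+)Hep 1 stood at 1771 normalized reads, and the other 7 libraries at 996 to 1207. Psma2 lies outside the rule for named genes and was chosen after its values were seen.

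In the beta rings 6 of the 7 constitutive genes had negative log2 fold changes. Psmb6, which provides the caspase-like cutting site, had 1413, 1353, 1453, 1303 and 1368 normalized reads in libraries labelled URI(+/D)Hep, against 1862, 1588 and 1847 in those labelled URI(+/+)Hep (log2 fold change -0.36, SE 0.093, limma adjusted p = 0.129). Psmb1, a beta subunit without a cutting site, had 1132, 1015, 1491, 1162 and 1314 normalized reads in libraries labelled URI(+/D)Hep, against 1533, 1698 and 1879.6 in those labelled URI(+/+)Hep (log2 fold change -0.49, SE 0.14, limma adjusted p = 0.142). The groups did not overlap for either gene, and within URI(+/D)Hep the values of Psmb1 were more scattered than those of Psmb6. In the 5 libraries holding Xist together with Y-linked reads the log2 fold changes were -0.43 for Psmb6 and -0.61 for Psmb1. Psmb3, another beta subunit without a cutting site, had 329.7, 386, 455, 341 and 436 normalized reads in libraries labelled URI(+/D)Hep, against 556, 418 and 462 in those labelled URI(+/+)Hep (log2 fold change -0.30, SE 0.15, limma adjusted p = 0.321). Its lowest library labelled URI(+/+)Hep lay inside the URI(+/D)Hep range, and its log2 fold change was -0.19 without URI(+/+)Hep 1.

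The remaining cutting sites gave smaller differences. Psmb5, which holds the chymotrypsin-like site, had 210.4, 219, 273, 171 and 222 normalized reads in libraries labelled URI(+/D)Hep, against 284, 224 and 229 in those labelled URI(+/+)Hep (log2 fold change -0.17, SE 0.16, limma adjusted p = 0.611). Psmb7, which holds the trypsin-like site, had 568, 574, 646, 603 and 501 normalized reads in libraries labelled URI(+/D)Hep, against 724, 589 and 605 in those labelled URI(+/+)Hep (log2 fold change -0.14, SE 0.12, limma adjusted p = 0.549). The groups overlapped for both, and without URI(+/+)Hep 1 the log2 fold changes were -0.061 for Psmb5 and -0.050 for Psmb7. Psmb4 and Psmb2 had log2 fold changes of -0.33 and 0.19, with limma adjusted p-values of 0.356 and 0.605. Psmb4, chosen after its values were seen, stood at 1896 normalized reads in URI(+/+)Hep 1 and at 1021 to 1163 in the other libraries.

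The ATPase ring of the regulatory particle had 5 of 6 genes with negative log2 fold changes. Psmc3 had 1386, 1424, 1547, 1389 and 1392 normalized reads in libraries labelled URI(+/D)Hep, against 1768, 1627 and 1711 in those labelled URI(+/+)Hep (log2 fold change -0.25, SE 0.086, limma adjusted p = 0.188). Psmc5 had 793, 747, 858, 852 and 939.6 normalized reads in libraries labelled URI(+/D)Hep, against 961, 985 and 1137 in those labelled URI(+/+)Hep (log2 fold change -0.29, SE 0.11, limma adjusted p = 0.212). Psmc4 had 148, 174, 165, 152 and 157 normalized reads in libraries labelled URI(+/D)Hep, against 246, 182 and 186 in those labelled URI(+/+)Hep (log2 fold change -0.35, SE 0.13, limma adjusted p = 0.227). For these 3 ATPases no library labelled URI(+/D)Hep reached the lowest library labelled URI(+/+)Hep, although for Psmc4 and Psmc5 the nearest values were close. URI(+/+)Hep 1 was highest for Psmc4, whose log2 fold change was -0.21 without it. The other 3, Psmc1, Psmc2 and Psmc6, overlapped, with log2 fold changes between -0.11 and 0.099. The 6 proteins share 1 ring, and the differences between their log2 fold changes were not tested.

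Among the non-ATPase subunits 8 of 11 log2 fold changes were negative, some of them near zero. Psmd2, a large scaffold of the base to which ubiquitin shuttle factors bind, had 994, 948, 1025, 1038 and 997 normalized reads in libraries labelled URI(+/D)Hep, against 1358, 1229 and 1265 in those labelled URI(+/+)Hep (log2 fold change -0.36, SE 0.084, limma adjusted p = 0.115). It had the smallest p of all members, ranges that did not overlap, and a 95% interval of -0.55 to -0.17 for the log2 fold change. Across 19 alternative settings that log2 fold change stayed between -0.39 and -0.32. Psmd13, a lid subunit, had 989, 905, 1245, 1023 and 993 normalized reads in libraries labelled URI(+/D)Hep, against 1474, 1258 and 1338 in those labelled URI(+/+)Hep (log2 fold change -0.40, SE 0.12, limma adjusted p = 0.15). Psmd3, another lid subunit, had 665, 651, 910.5, 662 and 772 normalized reads in libraries labelled URI(+/D)Hep, against 965, 891 and 1113 in those labelled URI(+/+)Hep (log2 fold change -0.44, SE 0.14, limma adjusted p = 0.164). The groups did not overlap for Psmd13, by a narrow margin, and overlapped for Psmd3 through URI(+/D)Hep 3.

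Of the other 8 non-ATPase genes, Psmd8 and Psmd4 were chosen after their values were seen. Psmd8, a lid subunit, had 1003, 1110.2, 1217, 1065 and 1427 normalized reads in libraries labelled URI(+/D)Hep, against 2605, 1619 and 1346 in those labelled URI(+/+)Hep (log2 fold change -0.63, SE 0.21, limma adjusted p = 0.181). It had the most negative log2 fold change of the regulatory particle, with URI(+/+)Hep 1 far above the rest, and the log2 fold change was -0.35 without that library. In the 5 libraries holding Xist together with Y-linked reads it was -0.17. Psmd4, a ubiquitin receptor, had 1051, 1256, 1769.7, 1084 and 1680.3 normalized reads in libraries labelled URI(+/D)Hep, against 1665, 1671 and 1876 in those labelled URI(+/+)Hep (log2 fold change -0.38, SE 0.19, limma adjusted p = 0.335). URI(+/D)Hep 3 and 5 stood within the URI(+/+)Hep range, and URI(+/D)Hep 1, 2 and 4 below it. The other 6, Psmd1, Psmd6, Psmd7, Psmd11, Psmd12 and the deubiquitinase gene Psmd14, had log2 fold changes between -0.045 and 0.049. Psmd1 was also chosen after its values were seen. It had 689, 721, 728, 736 and 708 normalized reads in libraries labelled URI(+/D)Hep, against 658, 699 and 721 in those labelled URI(+/+)Hep. Its 95% interval of -0.14 to 0.23, the narrowest of these 6, limits a fall to 0.91 of the URI(+/+)Hep level. The interval of Psmd6 allows a fall to 0.79 of that level.

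**Figure D2:**
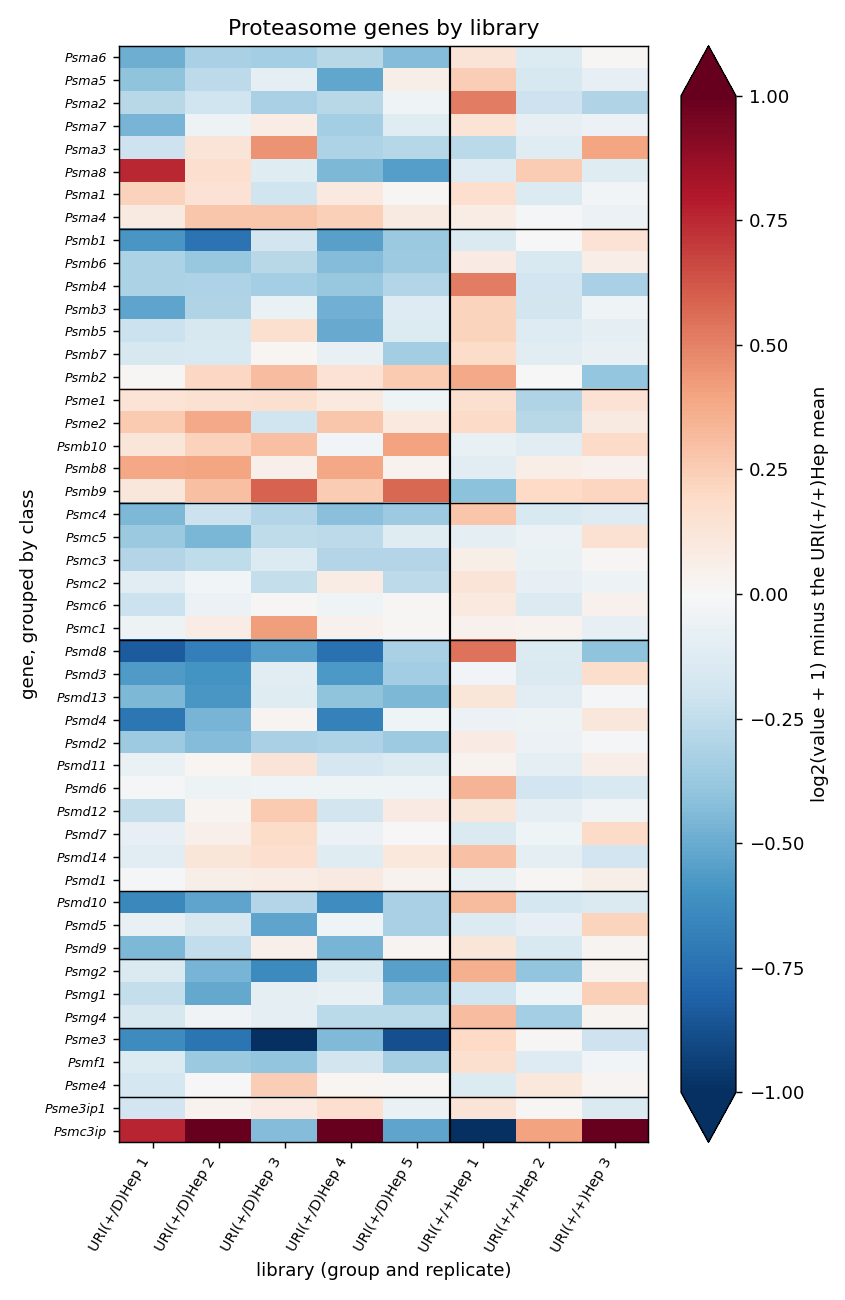
Each row is a member and each column a library, URI(+/D)Hep 1 to 5 left of URI(+/+)Hep 1 to 3, with classes parted by lines. Colour gives log2(value + 1) minus the mean of the URI(+/+)Hep libraries, red above and blue below it, and values beyond 1 take the end colours. The immunoproteasome rows are mostly red in the URI(+/D)Hep columns, where the core and regulatory rows are mostly blue.

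Averaged over the genes of a class, the libraries can be set side by side as log2 differences from the URI(+/+)Hep mean. The core stood at -0.19, -0.13, -0.044, -0.27 and -0.18 in libraries labelled URI(+/D)Hep, against 0.15, -0.091 and -0.064 in those labelled URI(+/+)Hep. The regulatory particle stood at -0.29, -0.20, -0.048, -0.24 and -0.15 in libraries labelled URI(+/D)Hep, against 0.10, -0.087 and -0.016 in those labelled URI(+/+)Hep. The immunoproteasome stood at 0.20, 0.29, 0.18, 0.20 and 0.21 in libraries labelled URI(+/D)Hep, against -0.049, -0.086 and 0.14 in those labelled URI(+/+)Hep. Of the libraries labelled URI(+/D)Hep, number 3 was nearest to the URI(+/+)Hep mean for the core and the regulatory particle, while URI(+/+)Hep 1 had the highest value for both. URI(+/+)Hep 3 had an immunoproteasome value not far below the URI(+/D)Hep libraries. In URI(+/D)Hep 1, 17 of 17 regulatory particle genes were below the URI(+/+)Hep mean, and in URI(+/D)Hep 3 9 were. The dividing cell markers summed to 3187, 2296, 1698, 3101 and 380 normalized reads in libraries labelled URI(+/D)Hep, against 248, 2036 and 3288 in those labelled URI(+/+)Hep. The part of these differences in the class values was not tested.

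**Figure D3:**
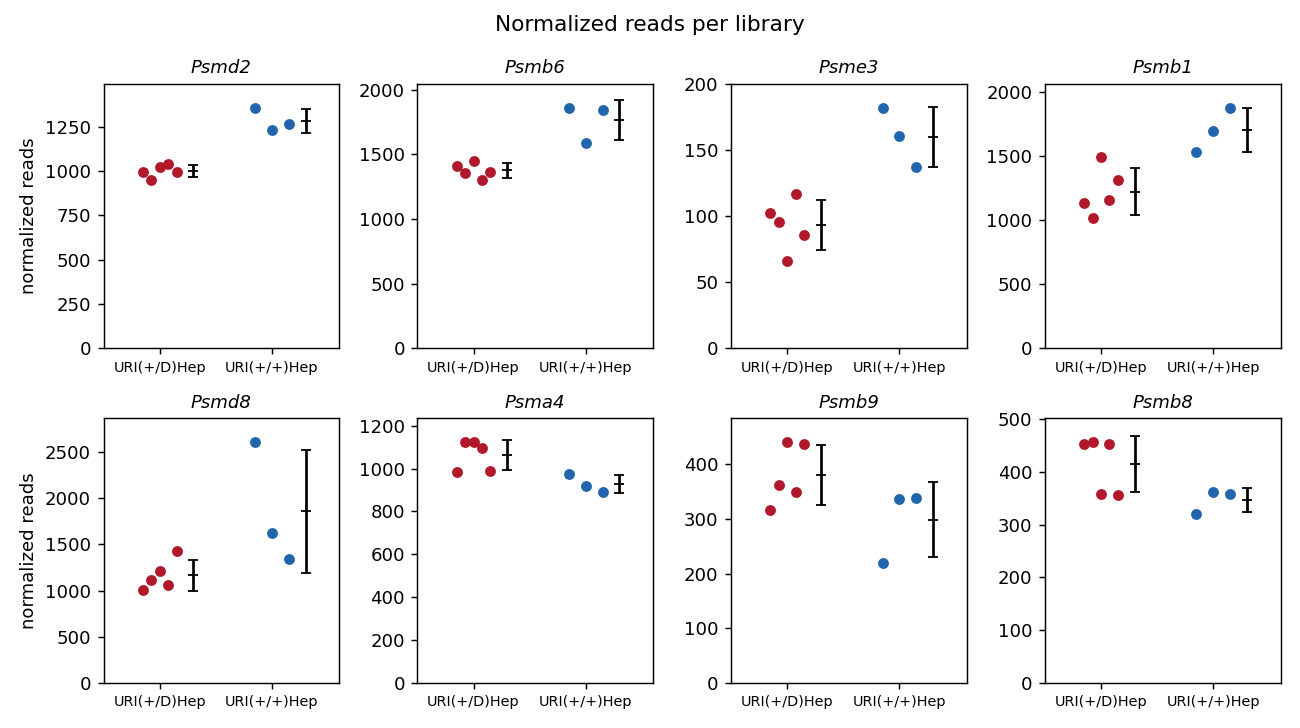
Normalized reads of 8 members in each library, with the 5 libraries labelled URI(+/D)Hep in red left of the 3 labelled URI(+/+)Hep in blue, and mean and SD in black. Psmd2, Psmb6, Psme3 and Psmb1 show separate groups, lower in URI(+/D)Hep, and Psma4 separate groups, higher in URI(+/D)Hep, while the groups overlap for Psmd8, Psmb9 and Psmb8.

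The inducible catalytic genes had positive log2 fold changes, where the subunits they replace had negative ones, with 0 of these 6 genes past the limma test. Psmb9, whose product takes the place of Psmb6, had 316, 361, 439.8, 349 and 436 normalized reads in libraries labelled URI(+/D)Hep, against 219, 337 and 339 in those labelled URI(+/+)Hep (log2 fold change 0.37, SE 0.18, limma adjusted p = 0.32). Psmb8, the inducible chymotrypsin-like subunit, had 453, 456, 358, 452 and 355 normalized reads in libraries labelled URI(+/D)Hep, against 320.2, 362 and 357 in those labelled URI(+/+)Hep (log2 fold change 0.25, SE 0.13, limma adjusted p = 0.338). Psmb10, the inducible trypsin-like subunit, had 243, 262, 276, 220.1 and 297 normalized reads in libraries labelled URI(+/D)Hep, against 212, 207 and 255 in those labelled URI(+/+)Hep (log2 fold change 0.21, SE 0.13, limma adjusted p = 0.44). The groups overlapped for all 3, and in Psmb9 URI(+/+)Hep 1 stood far below the other 7 libraries. Without that library the log2 fold change of Psmb9 was 0.16, and in the 5 libraries holding Xist together with Y-linked reads it was 0.22. Psme1, a subunit of the interferon-induced cap called PA28, had 299, 303, 304, 291 and 264 normalized reads in libraries labelled URI(+/D)Hep, against 305, 221 and 300.4 in those labelled URI(+/+)Hep (log2 fold change 0.10, SE 0.13, limma adjusted p = 0.728). Psme2, its partner, had 131, 142, 94.7, 132 and 117 normalized reads in libraries labelled URI(+/D)Hep, against 125, 89.6 and 116 in those labelled URI(+/+)Hep (log2 fold change 0.16, SE 0.17, limma adjusted p = 0.664). Both overlapped, and the sign of Psme1 turned without URI(+/+)Hep 2, where its log2 fold change was -0.051 and that of Psme2 was 0.022. In the 5 libraries holding Xist together with Y-linked reads the log2 fold changes were 0.17 for Psmb8, 0.039 for Psmb10, -0.050 for Psme1 and 0.049 for Psme2.

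Macrophages express the inducible subunits too, and some leukocyte markers were lowest in the library where Psmb9 was lowest, URI(+/+)Hep 1. Ptprc, carried by all leukocytes, had 269.6, 216, 205, 326 and 189.9 normalized reads in libraries labelled URI(+/D)Hep, against 93.5, 215 and 156 in those labelled URI(+/+)Hep. Adgre1, a macrophage marker, had 225, 171, 165, 302 and 159 in libraries labelled URI(+/D)Hep, against 76.8, 189 and 159 in those labelled URI(+/+)Hep. Clec4f, a marker of Kupffer cells, had 384, 295, 252, 339 and 203 in libraries labelled URI(+/D)Hep, against 102, 238 and 245 in those labelled URI(+/+)Hep. The groups overlapped for each, and the log2 fold changes were 0.69, 0.58 and 0.66. Of the 9 leukocyte markers tested 4 had positive log2 fold changes, these 3 and the B cell marker Ms4a1, and 5 negative ones. The negative ones were the monocyte receptor gene Ccr2 (-1.28) and the neutrophil genes S100a8 (-0.75) and S100a9 (-0.62). Cd68 (-0.26) and Lyz2 (-0.00096), which macrophages also express, were negative too. In URI(+/+)Hep 1 Cd68 stood at 113 and Lyz2 at 423 normalized reads, neither of them its lowest value. S100a8 and S100a9 were highest in that library, at 564 and 224. Of these markers all but Ptprc and Ccr2 were chosen after their values were seen. The summed leukocyte reads, given above, overlapped between the groups while mixing these directions. The part of these cells in the immunoproteasome values was not tested.

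Because each inducible subunit takes the place of a constitutive one, the ratio within a library was compared too. The ratio of Psmb9 to Psmb6 was 0.224, 0.267, 0.303, 0.268 and 0.319 in libraries labelled URI(+/D)Hep, against 0.118, 0.212 and 0.184 in those labelled URI(+/+)Hep. The mean log2 ratio was higher by 0.72 in libraries labelled URI(+/D)Hep, with an exact permutation p of 0.0357 and one of 0.107 adjusted over the 3 pairs (two-sided). All 5 libraries labelled URI(+/D)Hep lay above all 3 labelled URI(+/+)Hep, yet the difference did not pass after adjustment. The ratio of Psmb10 to Psmb7 was 0.428, 0.456, 0.428, 0.365 and 0.592 in libraries labelled URI(+/D)Hep, against 0.293, 0.351 and 0.422 in those labelled URI(+/+)Hep. Its mean log2 difference was 0.35, with an exact permutation p of 0.0714, adjusted 0.107. The ratio of Psmb8 to Psmb5 was 2.16, 2.08, 1.31, 2.64 and 1.6 in libraries labelled URI(+/D)Hep, against 1.13, 1.62 and 1.56 in those labelled URI(+/+)Hep. Its mean log2 difference was 0.42, with an exact permutation p of 0.179, adjusted 0.179. The groups overlapped for Psmb10 over Psmb7 and for Psmb8 over Psmb5. With 56 splits of 8 libraries this two-sided p cannot be smaller than 0.0357, the value of Psmb9 over Psmb6. For 1 pair alone it becomes 0.107 after adjustment over 3, so a single pair could not have passed on its own. Library URI(+/+)Hep 1 had the lowest ratio of all 3 pairs, and without it the log2 differences were 0.47, 0.22 and 0.26 for Psmb9, Psmb10 and Psmb8.

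**Figure D4:**
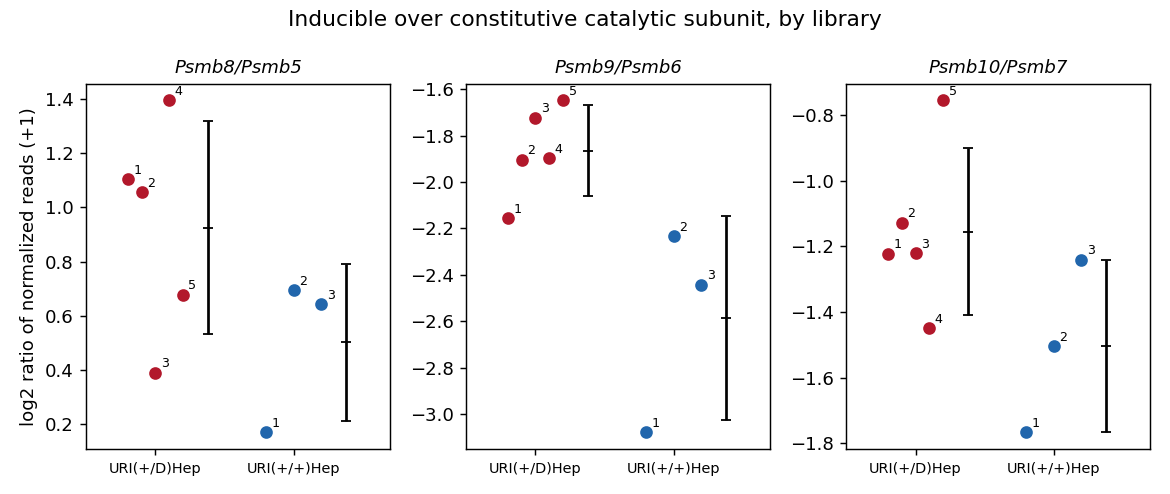
Log2 ratio of inducible to constitutive catalytic subunit (normalized reads plus 1) on the vertical axis, 1 panel a pair, with each library numbered by its replicate and mean and SD in black. Libraries labelled URI(+/D)Hep, left in red, all lie above those labelled URI(+/+)Hep, right in blue, for Psmb9 over Psmb6, and overlap with them in the other 2 panels.

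The 250 bases before the start of 4 of these genes are shown, since they are the 2 exchange pairs for which both genes are in the RefSeq promoter table. Capitals mark matches, on either strand, to an antioxidant response element written TGACNNNGC, which NFE2L1 and NFE2L2 can bind, to a CCAAT box, to a gamma-activated site written TTCNNNGAA, or to an interferon regulatory factor site, a pair of GAAA boxes parted by NN. Sequences are 5′ to 3′ on the strand of the gene, from RefSeq on build GRCm38.p6, which is not the build of the files.
Psmb6, chr11:70525107-70525356, plus strand: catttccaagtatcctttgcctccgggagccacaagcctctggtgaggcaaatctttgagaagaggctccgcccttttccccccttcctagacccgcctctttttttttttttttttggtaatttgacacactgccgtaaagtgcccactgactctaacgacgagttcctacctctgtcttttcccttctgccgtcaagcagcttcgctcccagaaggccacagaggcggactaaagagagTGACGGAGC
Psmb9, chr17:34187331-34187580, minus strand: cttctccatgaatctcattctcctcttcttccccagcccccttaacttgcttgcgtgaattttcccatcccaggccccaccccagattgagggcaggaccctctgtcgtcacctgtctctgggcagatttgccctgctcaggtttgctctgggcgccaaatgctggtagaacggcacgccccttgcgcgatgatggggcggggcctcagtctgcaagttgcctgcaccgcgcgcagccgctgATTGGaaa
Psmb5, chr14:54617996-54618245, minus strand: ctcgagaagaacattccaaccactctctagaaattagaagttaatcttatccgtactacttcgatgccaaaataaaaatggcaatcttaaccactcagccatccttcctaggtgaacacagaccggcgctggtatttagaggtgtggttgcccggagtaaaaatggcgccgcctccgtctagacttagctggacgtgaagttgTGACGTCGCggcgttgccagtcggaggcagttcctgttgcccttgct
Psmb8, chr17:34197945-34198194, plus strand: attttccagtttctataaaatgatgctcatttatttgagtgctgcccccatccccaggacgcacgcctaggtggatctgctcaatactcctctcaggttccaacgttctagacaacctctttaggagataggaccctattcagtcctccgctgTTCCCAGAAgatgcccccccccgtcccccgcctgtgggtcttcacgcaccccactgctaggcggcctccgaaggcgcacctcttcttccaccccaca
Psmb6 and Psmb5 each hold 1 match to the antioxidant response element, beginning 9 and 47 bases before the start. Psmb9 holds a CCAAT box in reverse, 8 bases before the start, and Psmb8 a gamma-activated site beginning 97 bases before it.

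Matches were counted in windows from 250 bases before to 50 after the start, for the 40 members in the table, with 44 windows. The antioxidant response element was in 6 of them (13.6%), against 12.4% of all 32851 windows. The CCAAT box was in 15 (34.1%) against 37.4%, the gamma-activated site in 3 (6.82%) against 8.3%, and the interferon regulatory factor site in 5 (11.4%) against 3.44%. These 5 windows were those of Psmb3, Psmd4, Psmd9, Psmg4 and Psme1. By class, 1 of 6 immunoproteasome windows and 2 of 27 windows of the core and regulatory particle held that site. A match shows letters only, not a bound site, and the 8 members missing from the table were not searched.

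Assembly factors of both particles had negative log2 fold changes, 3 of 3 for the regulatory particle and 3 of 3 for the core. For the core 4 were listed, and only these 3 had values. Psmd10, also called gankyrin, is a chaperone of the ATPase ring encoded on the X chromosome, and it had 152, 165, 194, 155 and 189.9 normalized reads in libraries labelled URI(+/D)Hep, against 296, 211 and 216 in those labelled URI(+/+)Hep (log2 fold change -0.48, SE 0.15, limma adjusted p = 0.167). The groups did not overlap for Psmd10, and URI(+/+)Hep 1 stood well above the rest. With the share of Y-linked reads as a covariate its log2 fold change was -0.36, and without URI(+/+)Hep 1 it was -0.32. Psmd5, a chaperone of the same ring, had 167, 157, 122, 170.5 and 140.4 normalized reads in libraries labelled URI(+/D)Hep, against 159.5, 166 and 205 in those labelled URI(+/+)Hep (log2 fold change -0.23, SE 0.15, limma adjusted p = 0.465). Psmd9, another of them, had 295, 339.8, 417, 291 and 409 normalized reads in libraries labelled URI(+/D)Hep, against 439, 362 and 411 in those labelled URI(+/+)Hep (log2 fold change -0.22, SE 0.15, limma adjusted p = 0.484). Both overlapped, and the highest Psmd9 values of URI(+/D)Hep, in libraries 3 and 5, lay within the range of URI(+/+)Hep. Without URI(+/+)Hep 3 the log2 fold change of Psmd5 was -0.12.

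The chaperones of the core gave the same sign with overlapping groups. Psmg1, which forms a dimer with Psmg2 to help build the alpha ring, had 91.9, 75.9, 101, 103 and 81.1 normalized reads in libraries labelled URI(+/D)Hep, against 94.7, 105 and 129 in those labelled URI(+/+)Hep (log2 fold change -0.27, SE 0.16, limma adjusted p = 0.417). Psmg2 had 169.7, 136, 121, 169.5 and 129 normalized reads in libraries labelled URI(+/D)Hep, against 241, 143 and 193 in those labelled URI(+/+)Hep (log2 fold change -0.39, SE 0.19, limma adjusted p = 0.333). Psmg4, of the second such dimer, had 93.7, 103, 98.6, 87.1 and 87.0 normalized reads in libraries labelled URI(+/D)Hep, against 131, 82.7 and 107 in those labelled URI(+/+)Hep (log2 fold change -0.16, SE 0.16, limma adjusted p = 0.638). In Psmg2 the library URI(+/+)Hep 1 was highest and URI(+/+)Hep 2 lay among the URI(+/D)Hep values, so the spread within URI(+/+)Hep was wide. Without URI(+/+)Hep 1 the log2 fold changes were -0.21 for Psmg2 and -0.0086 for Psmg4, and without URI(+/+)Hep 3 that of Psmg1 was -0.15. Without URI(+/+)Hep 2 they were -0.58 for Psmg2 and -0.34 for Psmg4.

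Of the other activators and inhibitors, Psme3 had the most negative log2 fold change of the 48 members. Psme3, the nuclear activator PA28 gamma, which opens the core without ATP, had 103, 95.4, 65.7, 117 and 86.0 normalized reads in libraries labelled URI(+/D)Hep, against 182, 160.5 and 137 in those labelled URI(+/+)Hep (log2 fold change -0.79, SE 0.20, limma adjusted p = 0.12). The means were 93.4 ± 19.2 in libraries labelled URI(+/D)Hep and 160.0 ± 22.5 in those labelled URI(+/+)Hep (SD, n = 5 and 3), a ratio of 0.583, and the groups did not overlap. Its log2 fold change was -0.62 in the 5 libraries holding Xist together with Y-linked reads and -0.69 without URI(+/+)Hep 1. Psmf1, the inhibitor PI31, had 141, 119, 117, 136 and 123 normalized reads in libraries labelled URI(+/D)Hep, against 173, 141 and 151 in those labelled URI(+/+)Hep (log2 fold change -0.28, SE 0.12, limma adjusted p = 0.281). Its groups all but touched, with 140.5 as the highest value of URI(+/D)Hep and 140.8 as the lowest of URI(+/+)Hep. Psme4, the activator PA200, had 1025, 1154, 1375, 1173 and 1164 normalized reads in libraries labelled URI(+/D)Hep, against 1054, 1248 and 1177 in those labelled URI(+/+)Hep (log2 fold change 0.020, SE 0.11, limma adjusted p = 0.946), with overlapping groups. The rule also brought in 2 genes that are no subunits: Psme3ip1, a partner of Psme3, with a log2 fold change of 0.0045, and Psmc3ip, a cofactor of meiotic recombination, with one of 0.40 and values of 4.8 to 34.3.

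Genes that work with the proteasome outside these symbols were taken from lists, and 0 of them passed the limma test. Of 16 partners tested, 12 were negative, with a median log2 fold change of -0.10. At an unadjusted limma p under 0.05 3 were lower and 0 higher, where 9.33% and 8.35% of all genes tested were. DESeq2 called 3 lower and 0 higher, where it called 4.1% and 2.57% of all genes it adjusted. Pomp, which matures the core, had 2379.5, 2304, 2714, 2563 and 2751 normalized reads in libraries labelled URI(+/D)Hep, against 3769, 3151 and 3443 in those labelled URI(+/+)Hep (log2 fold change -0.44, SE 0.11, limma adjusted p = 0.116). Rad23b, a shuttle that brings ubiquitinated proteins to the regulatory particle, had 1512, 1381, 1766, 1678 and 1693 normalized reads in libraries labelled URI(+/D)Hep, against 2138, 2004 and 2567 in those labelled URI(+/+)Hep (log2 fold change -0.47, SE 0.12, limma adjusted p = 0.126). For both genes the groups stood apart, as for 3 of the 16 partners, where the share over all genes was 7.3%. In the ubiquitin list 4 of 5 genes were negative. Uba1, the main ubiquitin-activating enzyme, averaged 220.3 ± 22.2 normalized reads in libraries labelled URI(+/D)Hep (SD, n = 5) and 274 ± 26.9 in those labelled URI(+/+)Hep (SD, n = 3), with a log2 fold change of -0.31 (limma adjusted p = 0.236). The groups did not overlap for Uba1.

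The genes that control proteasome transcription through NFE2L1 had log2 fold changes with a median of -0.083 and 8 of 12 negative. Nfe2l1 itself, chosen after its values were seen, averaged 419 ± 48.6 normalized reads in libraries labelled URI(+/D)Hep (SD, n = 5) and 435 ± 62.3 in those labelled URI(+/+)Hep (SD, n = 3), with a log2 fold change of -0.051 (limma adjusted p = 0.876). Vcp, the segregase that draws NFE2L1 out of the endoplasmic reticulum, averaged 1997 ± 182 normalized reads in libraries labelled URI(+/D)Hep (SD, n = 5) and 2551 ± 272 in those labelled URI(+/+)Hep (SD, n = 3), with a log2 fold change of -0.35 (limma adjusted p = 0.171), with groups that did not overlap. Ngly1, the glycanase that processes NFE2L1, averaged 155 ± 10.5 normalized reads in libraries labelled URI(+/D)Hep (SD, n = 5) and 135 ± 11.03 in those labelled URI(+/+)Hep (SD, n = 3), with a log2 fold change of 0.20 (limma adjusted p = 0.391).

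The antigen presentation list, only some of whose genes also answer to interferon, had 8 of 12 genes negative and a median log2 fold change of -0.17. At an unadjusted limma p under 0.05 4 were lower and 0 higher, where 9.33% and 8.35% of all genes tested were. DESeq2 called 2 lower and 0 higher, where it called 4.1% and 2.57% of all genes it adjusted. Its summed reads were 10388 to 12672 in libraries labelled URI(+/D)Hep and 13361 to 14049.7 in those labelled URI(+/+)Hep. Tap1, the peptide transporter gene next to Psmb9, had 136, 154, 151, 155 and 167 normalized reads in libraries labelled URI(+/D)Hep, against 225, 189 and 221 in those labelled URI(+/+)Hep (log2 fold change -0.47, SE 0.12, limma adjusted p = 0.12). H2-D1, a class I heavy chain, averaged 1360.5 ± 62.1 normalized reads in libraries labelled URI(+/D)Hep (SD, n = 5) and 1812 ± 315 in those labelled URI(+/+)Hep (SD, n = 3), with a log2 fold change of -0.40 (limma adjusted p = 0.147). The groups did not overlap for either gene, and both log2 fold changes were negative while those of the 5 immunoproteasome genes were positive. Exons of Psmb9 and Tap1 overlap on opposite strands in the annotation at hand, and reads of this pair are uncertain, since the strand setting of the counting was not given in the sources used here. Psmc3, Psmd13, Psma4, Psma5, Psmb7, Psmb8, Psmd3, Psme1 and Psmc3ip also overlap an exon of a gene on the other strand. On the same strand, exons of Psmb5 overlap Mir686 and those of Psmd1 overlap Gm21972.

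The cell type marker lists had 0 limma calls. Of the genes it adjusted, DESeq2 called 1 of 8 hepatocyte markers higher (Cps1) and 1 lower (Trf). It called 1 of 8 leukocyte markers lower (Ccr2), 1 of 7 endothelial and stellate markers higher (Tek) and 0 of 7 dividing cell markers. Over all genes it adjusted, 2.57% were called higher and 4.1% lower. Group ranges stood apart for Cps1, Tek and Stab2, higher, and Trf, lower, where 6.13% and 7.3% of all genes tested did. The hepatocyte genes with the smallest p were Cps1, a urea cycle enzyme, which averaged 3175 ± 422 normalized reads in libraries labelled URI(+/D)Hep (SD, n = 5) and 1586 ± 443 in those labelled URI(+/+)Hep (SD, n = 3), with a log2 fold change of 1.03 (limma adjusted p = 0.108), and Trf, transferrin, with a log2 fold change of -0.47. For endothelial cells Tek had a log2 fold change of 0.70 and Stab2 one of 0.34. For dividing cells Bub1 had one of 0.76 (SE 0.65, limma adjusted p = 0.573) and Top2a one of 0.87 (SE 0.90, limma adjusted p = 0.655). The groups overlapped for both.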

How the data were processed

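Liver RNA of 8 mouse libraries was sequenced from 3′ ends, with oligo-dT priming and a molecular identifier of 6 nt, per the labels' protocols. Tools named by the submitters' processing notes are bcl2fastq, featureCounts and DESeq2, with GRCm39 as the build. The aligner, the annotation and any use of the identifiers were not given in the sources used here. In unit, the table deposited by the authors holds normalized signal, read counts divided by a size factor per library. Dividing by the smallest value above 0 gave whole reads, within 1e-06, for 100% of values. That smallest value was nearest to 1 in URI(+/D)Hep 5 (0.989), where whole reads are hardest to tell from rounded values, and next in URI(+/+)Hep 2 (0.985); the count tests were also run without URI(+/D)Hep 5. A count of 3 reads is 2.65 to 3.6 normalized reads.

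The limma 3.58.1 test ran on log2(value + 1) (R 4.3.3, mean-variance trend, Benjamini-Hochberg adjustment) over all genes with at least 10 in at least 3 libraries. Such fold changes understate the change of low genes. edgeR 4.0.16 and DESeq2 1.42.0 were run on recovered reads as alternatives. Ratios were tested by exact permutation over 56 splits. Replicates of a group differed by more than sampling noise. Members, gene lists and settings were chosen with earlier results of these data known. Genes named are the 8 exchange and cap genes, the 3 members of smallest p per class and 2 per other list; a gene that this rule picks is not reported here. Levels were not compared between genes. Exon overlaps were read from GENCODE M21 on GRCm38, by symbol.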

Additional observations from a re-analysis of the deposited data

Results flagged for a closer look

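Psmc3 in URI(+/D)Hep 3 stood at 1547 normalized reads, apart from the other 4 libraries of that label at 1386 to 1424. Psmc1 in the same library stood at 1574, apart from 1138 to 1246 in the other 4. In each the gap to the nearest library was more than 0.71 of the range of the 5. Of 48 members examined 2 were marked, and chance marks about 1 in 20 groups.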

How the results depend on the processing

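Calls over all genes depended on the setting. DESeq2 called 236 higher and 376 lower, and without URI(+/D)Hep 5 it called 123 and 255, the cause of which was not tested. Leaving out 1 library at a time gave 0 to 11 higher and 0 to 23 lower, with 11 and 23 without URI(+/+)Hep 3. Without URI(+/+)Hep 1 and URI(+/D)Hep 5 together there were 1 higher and 0 lower, and 0 lower when the share of Y-linked reads entered as a covariate, in the 5 libraries holding Xist together with Y-linked reads, and with edgeR without URI(+/D)Hep 5. Members called lower numbered 6 with DESeq2 and 2 with DESeq2 without URI(+/D)Hep 5, and 0 in the 17 other settings. With the replicate number as a block 0 genes and 0 members were called. The deviations of same-numbered libraries correlated at -0.40, -0.043 and -0.27 across genes. These values gave no sign that numbers pair libraries, but so few libraries cannot exclude it. In the 5 libraries holding Xist together with Y-linked reads, a setting chosen after seeing the data, the medians were -0.067 for the core and 0.049 for the immunoproteasome. Without URI(+/+)Hep 1 and URI(+/D)Hep 5 the log2 fold changes of Psmb7 (0.00043), Psme4 (-0.044) and Psmg4 (0.017) turned sign, as did Psme1 in the 5 libraries holding both (-0.050). Leaving out 1 library, Psme4 ranged from -0.047 to 0.075 and Psme1 from -0.051 to 0.18. The 3 ratios kept their sign under all 10 alternatives run for them, and TMM recentring turned no sign among the 28 named members. Depth limits Psma8 and Psmc3ip, the members nearest the filter.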
